A study of Mus musculus with 4 samples.

Results

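Certain stretches of the mouse genome carried many ATAC-seq peaks listed in Irx5KO hair follicle stem cells (HFSC) and not in WT cells. Chromosomes 1 to 19 of mm10 were split into bins of 100 kb, and a bin was kept where peaks listed in Irx5KO only outnumbered peaks listed in WT only by 6 or more. A peak was listed in 1 genotype only when it shared no base with any peak of the other list. The rule kept 880 of the 24021 bins with a peak, which is 3.66%. The peaks described here are the 7850 Irx5KO-only peaks in those dense bins whose score was under the median of the Irx5KO list, out of 99454 Irx5KO-only peaks on these chromosomes and 486180 peaks in the whole list. They are called clustered peaks below. Both the bins and the peaks were chosen from the listed values, so their excess is a description and no test of it was made.

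ATAC-seq maps open chromatin with the transposase Tn5, which cuts and tags DNA that is not tightly packed. The study sorted HFSC by a gate without Ly-6A/E and with CD34 and CD45f (spelled as in the labels, which do not say which protein is meant). Irx5KO and WT had 2 samples each, and each genotype's pair was pooled into a single peak list before deposit. Replicate spread is therefore unknown and no genotype difference was tested. The sources used here do not give the Irx5KO allele or the age and strain of the mice. Every interval below is a 95% Wilson interval and covers counting error only. Read depth is unknown in these lists. Genotype and library preparation cannot be told apart, nor, in bulk samples, can the mix of cells and the chromatin of each cell.

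HFSC rest in the bulge of the hair follicle and start each new growth phase. BMP and FGF18 signals hold them at rest, while WNT signals and growth factors from the dermis release them. Their identity rests on transcription factors such as SOX9, LHX2, TCF7L1 and members of the NFI family, which bind distal enhancers that often lie in groups within 1 neighbourhood. Irx5, the targeted gene, encodes a homeodomain factor of the Iroquois family. All 10 HFSC marker genes checked, among them Cd34, Krt15, Sox9 and Lhx2, had a peak within 1000 bp of a gene end in both lists. Such a peak was common in any gene, at 82.0% of 20665 coding genes in Irx5KO and 79.7% in WT, so its presence identifies no cell type. Of 16 fibroblast and dermal papilla markers, 13 had one in Irx5KO and 11 in WT. The counts were 8 and 10 of 16 immune markers, 4 and 9 of 10 melanocyte markers, 7 and 8 of 10 endothelial markers, and 11 and 9 of 12 nerve, Schwann and muscle markers.

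Clustered peaks reached into promoters at 122 of 16457 genes with a promoter sequence. A promoter was overlapped by 2.23% of clustered peaks and by 1.43% of all Irx5KO-only peaks under the list median. Among Irx5KO peaks in the same bins that overlapped a WT peak the share was 7.70%. The sequences below are the promoters overlapped by such a peak at 5 named genes. Ptprf and Ugt1a7c lie in the 10 densest bins, while Mcidas, Ccdc9b and Pdcd7 were taken for their number of clustered peaks near gene ends and lie in bins with an excess of 8, 6 and 6. Without the lowest 10% of peaks by score, Mcidas, Ccdc9b and Pdcd7 held 0 clustered peaks. A clustered peak covered only part of each sequence: 43 bases at Ptprf, 100 at Ugt1a7c, 183 at Mcidas, 189 at Ccdc9b and 137 at Pdcd7. Each is the 250 bases before a RefSeq start site (GRCm38.p6, the same assembly as mm10), written 5′ to 3′ along the gene. Capitals mark matches, on either strand, to the GC box GGGCGG, the AP-1 motif TGANTCA or the SOX motif ACAATG. The other motifs searched had no match in these windows. The GC box of Ccdc9b, the first GC box of Ptprf and part of the SOX match of Ugt1a7c lie outside the clustered peak. GC contents and CpG counts given for these promoters are of the whole window.
Ptprf, chr4:118291398-118291647, minus strand: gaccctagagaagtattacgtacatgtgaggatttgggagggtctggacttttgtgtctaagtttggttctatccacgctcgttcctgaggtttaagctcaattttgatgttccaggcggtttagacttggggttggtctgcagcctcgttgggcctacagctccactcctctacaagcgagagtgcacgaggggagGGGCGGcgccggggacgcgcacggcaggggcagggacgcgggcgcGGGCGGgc
Ugt1a7c, chr1:88094751-88095000, plus strand: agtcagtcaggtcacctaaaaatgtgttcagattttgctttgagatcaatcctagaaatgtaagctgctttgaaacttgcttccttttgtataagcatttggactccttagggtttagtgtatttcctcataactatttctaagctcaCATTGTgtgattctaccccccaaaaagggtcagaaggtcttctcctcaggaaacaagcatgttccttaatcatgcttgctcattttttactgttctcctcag
Mcidas, chr13:112993618-112993867, plus strand: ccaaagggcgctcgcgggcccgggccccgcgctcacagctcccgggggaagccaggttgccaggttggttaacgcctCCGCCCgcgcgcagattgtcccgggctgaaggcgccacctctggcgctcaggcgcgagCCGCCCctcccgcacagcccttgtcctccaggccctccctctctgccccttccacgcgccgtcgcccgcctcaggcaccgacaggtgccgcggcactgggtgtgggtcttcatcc
Ccdc9b, chr2:118762662-118762911, minus strand: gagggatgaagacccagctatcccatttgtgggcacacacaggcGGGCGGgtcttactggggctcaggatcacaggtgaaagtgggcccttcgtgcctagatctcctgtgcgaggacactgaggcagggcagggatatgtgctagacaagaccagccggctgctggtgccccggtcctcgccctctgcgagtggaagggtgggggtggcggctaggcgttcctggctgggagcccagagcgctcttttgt
Pdcd7, chr9:65345818-65346067, plus strand: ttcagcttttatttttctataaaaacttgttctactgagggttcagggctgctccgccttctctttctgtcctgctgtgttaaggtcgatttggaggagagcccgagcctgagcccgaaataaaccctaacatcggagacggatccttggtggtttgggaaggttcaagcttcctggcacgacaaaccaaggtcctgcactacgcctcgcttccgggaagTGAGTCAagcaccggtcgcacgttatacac

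Ptprf encodes the receptor tyrosine phosphatase LAR of adherens contacts, and its promoter held 2 GC boxes and a GC content of 59.2%. A clustered peak of 380 bp with a score of 97 covered its 43 bases next to the start site. The promoter of Mcidas, which encodes a regulator of multiciliated cells, was the richest of the 5 in G and C at 73.6%, with 27 CpG sites. Ccdc9b and Pdcd7, a component of the minor spliceosome, had 63.2% and 51.2%. The promoter of Ugt1a7c was the poorest at 38.8%, with no CpG site and 1 SOX match. Ugt1a7c belongs to the Ugt1a cluster of glucuronosyltransferases, whose first exons are joined to a common set of later exons, so its span overlaps those of its neighbours.

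Over all 1333 promoters in dense bins the median GC content was 59.2% (quartiles 53.2 and 66.4), against 56.0% over all 20085 promoters. In bins with the reverse excess, 6 or more WT-only peaks above the number of Irx5KO-only peaks, the median was 47.2% over 1444 promoters. The GC box was found in 53.1% of promoters in dense bins, 43.4% of all promoters and 20.8% of those in the reverse bins. The Iroquois motif ACANNTGT was found in 4.35%, 5.21% and 7.96% of these 3 sets. The E-box CACGTG had 7.65%, 6.69% and 3.19%, and the GATA motif AGATAA had 5.93%, 8.72% and 14.1%. The AP-1 motif had 5.63%, 6.18% and 9.35%, and the SOX motif had 6.75%, 8.77% and 13.4%. The TEAD motif GGAATG had 12.6%, 11.5% and 12.0%, and the NFI motif TTGGCA had 11.3%, 11.5% and 13.4%. The GC box and the E-box were thus more frequent in dense than in reverse bins, and the Iroquois, AP-1, SOX and GATA motifs less frequent. For each of these motifs the share in dense bins lay closer to that of all promoters than to that of reverse bins. Promoters in reverse bins were also poorer in G and C, and the motif shares were not compared at equal GC content. In the 134 promoters overlapped by a clustered peak most counts were small. The E-box was found in 5 (3.73%), the AP-1 motif in 11 (8.21%), the Iroquois motif in 6 (4.48%) and the GC box in 62 (46.3%). At counts of 5 to 11 no difference from the other sets can be read. A match is a run of letters and not a bound site.

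The number of bins with an excess was far from symmetric. The reverse excess was found in 2689 bins, or 11.2%, and these held 28233 WT-only peaks under the median of the WT list. WT had more genotype-only peaks in all, with 122171 against 99454, and the mean of Irx5KO-only minus WT-only was -0.946 peaks per bin. Dense bins made up 24.7% of the bins with an excess either way, and 49.5% once Irx5KO-only counts were scaled to the total of WT-only peaks. A dense bin had a median of 9 Irx5KO-only and 2 WT-only peaks, and 134 of the 880 had no WT-only peak. At the limit of the rule, 385 bins had an excess of 6 and 631 had an excess of 5, with medians of 8 and 7 Irx5KO-only peaks and 2 WT-only peaks in each.

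**Figure D1:**
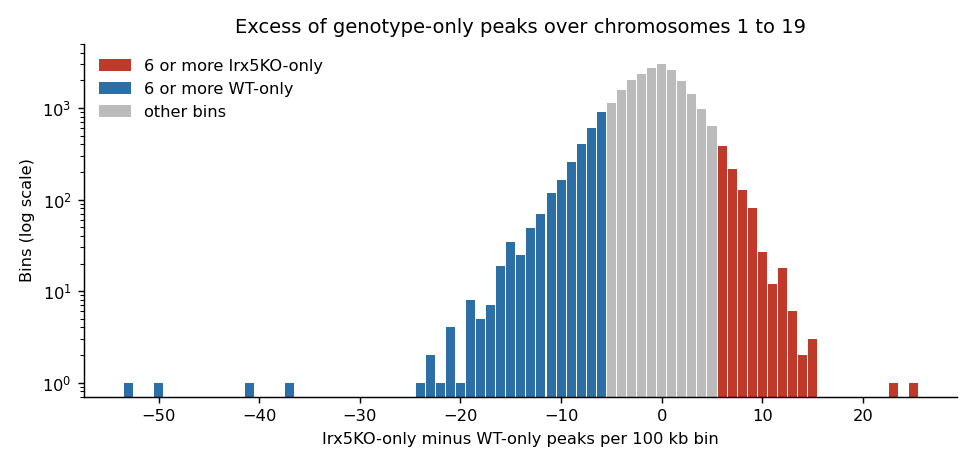
Number of 100 kb bins (log scale) by Irx5KO-only minus WT-only peaks on chromosomes 1 to 19. Red bars are the 880 dense bins, blue bars the 2689 bins with the reverse excess and grey bars all others; a pair of bins, at 25 and 23, stand apart on the right.

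The clustered peaks were as narrow as other low-scored peaks. Their median width was 260 bp, with 250 bp for all low-scored Irx5KO-only peaks and 490 bp for shared Irx5KO peaks in the same bins. The rule itself set their low scores. Scores ran from 51 to 208 with a median of 89.0, where the list median was 209. The 7 highest members had a score of 208, and 13 Irx5KO-only peaks at 209 were left out. Of the Irx5KO-only peaks in dense bins, 7850 were under the median and 537 at or above it. Over chromosomes 1 to 19 as a whole, 91467 of 99454 were under it, so low scores are not particular to these neighbourhoods. With only the peaks at or above the median counted, no bin reached an excess of 6 in either direction. Genotype-only peaks with such scores are so few that an excess of 6 was hardly within reach.

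The densest neighbourhood lay over Nfix on chromosome 8 (84700001 to 84800000). Nfix encodes a transcription factor of the nuclear factor I family, to which the HFSC regulator Nfib also belongs. The Irx5KO list held 37 peaks in the bin and the WT list 12. Irx5KO-only peaks numbered 27 and WT-only peaks 2, and all 27 had scores under the median, from 57 to 207. They spanned 92.5 kb of the bin. Within Nfix itself lay 24 of them, together with 11 shared peaks, over a gene of 96.5 kb. The neighbouring gene Lyl1, which encodes a basic helix-loop-helix factor of blood cells, held 2.

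The next bin lay over Ptprf on chromosome 4 (118200001 to 118300000). It held 30 Irx5KO peaks and 7 WT peaks, with 23 Irx5KO-only and 0 WT-only. The gene contained 21 of the 23, or 25.2 per 100 kb, about the density in Nfix (24.9 per 100 kb). In the bin of Grm4, a metabotropic glutamate receptor gene on chromosome 17, 20 peaks were Irx5KO-only and 5 WT-only. The 20 lay within 41.8 kb, and 16 of them lay in the gene. At Cr2, which encodes a complement receptor, the bin held 18 and 3. Of the 18, 17 were clustered peaks, and 10 of these lay in the gene. The dense stretch at Cr2 ran over 3 bins on chromosome 1 (195100001 to 195400000) with 49 Irx5KO-only and 10 WT-only peaks. It reached beyond Cr2, which ends at 195176880, and held no coding gene other than Cr1l and Cr2. In the bins of Nfix and Ptprf the clustered peaks were thus spread over the gene, while at Grm4 and Cr2 they filled part of the bin.

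**Figure D2:**
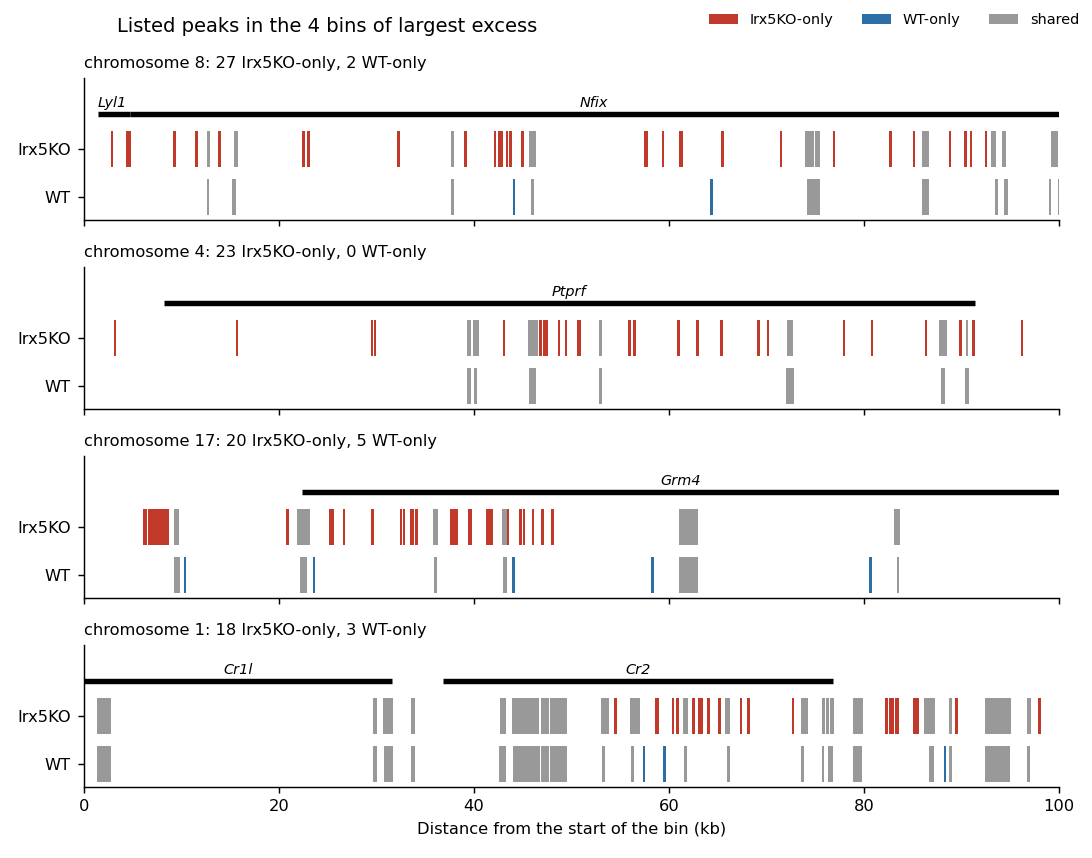
Peaks of both lists in the 4 bins of largest excess, against distance from the start of the bin in kb. Red is Irx5KO-only, blue WT-only and grey shared, and black lines are coding genes; Irx5KO-only peaks are spread along Nfix and Ptprf and gathered over parts of the bins at Grm4 and Cr2.

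The remaining bins among the 10 densest had 15 to 20 Irx5KO-only and 1 to 7 WT-only peaks. The fifth lay at Ank, a pyrophosphate transporter gene, with 17 clustered peaks in its 128 kb, and reached Otulin, a deubiquitinase gene with 0. The sixth held Ctdsp2, a phosphatase gene with 7, and the end of Atp23 with 0. A pair of the bins held no coding gene. The bin 9.57 kb from Cebpb, which encodes a transcription factor of epidermal differentiation, had 15 Irx5KO-only and 1 WT-only peaks. The other, 14.9 kb from 4930591A17Rik, had 20 and 7. The most gene-rich of the 10 held 12 coding genes on chromosome 7, with 18 and 5 genotype-only peaks. There Tspan4, a tetraspanin gene, held 5 clustered peaks and Cracr2b, a calcium-channel regulator gene, held 4. Cd151, which encodes a tetraspanin bound to laminin-binding integrins, held 0, and Pnpla2, which encodes a triglyceride lipase, held 1. The last bin lay at Usp40 and the Ugt1a cluster, with 17 and 4.

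The coding genes with the most clustered peaks were mostly long. Kirrel3 (555 kb) and Nfix had 24 each, Ptprt (1139 kb) had 23, Aopep and Ptprf had 21 each and Ryr2 (554 kb), a calcium release channel gene of the heart, had 19. Ank, Chchd6, Tcerg1l and Tcf7l1 had 17 each. Long genes also held many WT-only peaks. Over its whole span Kirrel3 had 41 from Irx5KO only and 39 from WT only, Ptprt had 77 and 86, and Ryr2 had 55 and 54. For these 3 genes the counts over the whole span lay close together. Their clustered peaks also hung on the settings: Kirrel3 and Ptprt had 0 with the bins shifted by 50 kb, and all 3 had 0 without the lowest 10% of peaks by score. In Nfix the count was 25 and 15 under these settings, in Ptprf 21 and 8, and in Tcf7l1 9 and 10. Nfix (25 and 2), Ptprf (21 and 0), Chchd6 (18 and 4), Tcf7l1 (18 and 6), Ank (18 and 5) and Aopep (31 and 11) had more Irx5KO-only peaks over the whole span. Tcf7l1 encodes a transcriptional repressor of the TCF family that keeps HFSC undifferentiated.

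The 10 genes with the most clustered peaks close to their ends were 1.28 to 36.8 kb long. Prdx2, a peroxiredoxin gene of 5.19 kb, had 4 within 1000 bp of an end. The hair keratin gene Krt81 had 3, as had Mcidas, Bves, Ccdc9b, Ggt5, Gtpbp6, Hspb2 and Pdcd7. Without the lowest 10% of peaks by score, the spans of Prdx2 and Ggt5 held 3 and 2 clustered peaks. Those of Krt81, Mcidas, Bves, Ccdc9b, Gtpbp6, Hspb2 and Pdcd7 held 0. Mcidas, Bves, Ccdc9b, Gtpbp6 and Hspb2 also held 0 with the bins shifted by 50 kb. In all, 543 of 20665 coding genes had a clustered peak near an end. Coding genes with an end in a dense bin made up 8.19% of the total, and those with an end in a reverse bin 9.01%.

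At Irx5 and 4 further genes tied to the study, the pattern was mixed. Irx5 itself lay in a dense bin (chromosome 8, 92300001 to 92400000) with 11 Irx5KO-only and 2 WT-only peaks. All 11 were clustered peaks, with scores from 67.0 to 118, and 2 of them lay in the gene. Without the lowest 10% of peaks by score the gene held 0. The bins of its neighbours Irx3 and Irx6 did not reach the limit, at differences of -2 and 3 for Irx3 and 5 for Irx6. The bin of Fgf18 had 8 and 4, and those of Brca1 had 7 and 3 and 2 and 3.

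Dense bins were rich in genes. At least 1 coding gene overlapped 81.9% (79.3 to 84.3) of them, against 65.0% (64.4 to 65.6) of all bins and 50.6% (48.7 to 52.5) of the reverse bins. The mean number of coding genes per bin was 2.08 in dense bins, 1.27 over all bins and 0.860 in reverse bins. The share of bins that were dense was higher with more genes, from 1.89% (1.62 to 2.2) of bins with 0 coding genes to 3.53% with 1, 4.75% with 2, 6.50% with 3 to 5 and 10.1% (7.90 to 12.9) with 6 or more. The share of reverse bins ran the other way, from 15.8% (15 to 16.6) to 3.99% (2.65 to 5.96). The mean difference per bin went from -1.90 with 0 genes to 1.27 with 6 or more.

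Promoter base composition moved with the same pattern. In 4 equal groups of bins by mean promoter GC, 2.10% (1.58 to 2.78) of the lowest group were dense, then 5.14%, 7.67% and 7.43% (6.43 to 8.58). Reverse bins made up 16.8%, 7.65%, 4.28% and 4.24%. Among bins with 1 coding gene, so at equal gene number, the dense share was 1.76% (1.07 to 2.88) in the lowest group and 6.39% (5.03 to 8.07) in the highest. The part of base composition in the excess was not tested.

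**Figure D3:**
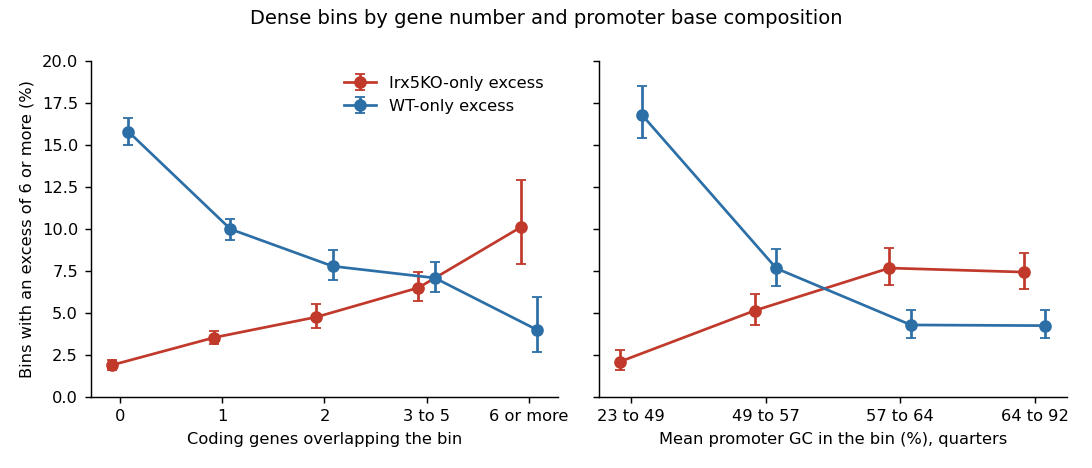
Percentage of bins with an excess of 6 or more, by number of coding genes (left) and by mean promoter GC content in percent, in 4 equal groups (right); points are shares and bars 95% Wilson intervals. Irx5KO-only excess (red) goes from 1.89% to 10.1% with gene number, and WT-only excess (blue) from 15.8% to 3.99%.

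Clustered peaks lay inside genes more often than low-scored Irx5KO-only peaks as a whole, and their bins also held more gene sequence. Coding gene spans filled a mean of 52.2% of a dense bin, 40.9% over all bins and 27.9% of a reverse bin. The gene-body shares below were not compared at equal gene cover. By midpoint, 48.8% (47.7 to 49.9) lay in a gene body and 7.76% (7.19 to 8.37) within 1000 bp of a gene end, against 38.1% and 4.81% of all 91467 low-scored Irx5KO-only peaks. Low-scored WT-only peaks in reverse bins had 26.6% (26.1 to 27.1) and 2.59% (2.41 to 2.78). Within 1000 bp of a RefSeq start site lay 6.59%, 4.21% and 1.82% of the 3 sets. The gene-end shares followed gene number. In bins with 3 to 5 coding genes 15.7% (14 to 17.4) of clustered peaks and 14.4% (13.8 to 15) of all low-scored Irx5KO-only peaks lay at gene ends. With 6 or more genes the shares were 27.7% (24.1 to 31.7) and 28.8% (27.2 to 30.5), and with 2 they were 7.32% and 7.45%. At equal gene number the intervals overlapped in these 3 classes.

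Shared peaks, which the rule did not count, are given as a description. Dense bins held a median of 10 shared Irx5KO peaks, against 12 over all bins and 17 in reverse bins. By rank, the median percentile of shared peaks in a dense bin was 2.74 points higher within the Irx5KO list than within the WT list (quartiles -3.52 and 9.48). The difference was -1.35 over all bins and -3.65 in reverse bins. In 62.2% (58.9 to 65.3) of dense bins and 42.2% (41.6 to 42.9) of all bins the shared peaks ranked higher in Irx5KO.

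The excess was mostly confined to single bins, with a weak extension into the surroundings. Most dense bins stood alone: 141 of 880 (16.0%) had another dense bin beside them, against 1119 of 2689 reverse bins (41.6%). Reverse bins were more common to begin with, at 11.2% of bins against 3.66% for dense bins. The 2 shares therefore do not show that dense bins group less than reverse bins. The longest run was 4 bins on chromosome 16 (17700001 to 18100000) with 30 Irx5KO-only and 2 WT-only peaks, from Med15 through Dgcr2 to Prodh, while reverse bins ran up to 11 in a row. Runs of 3 included the one at Cr2, one from Brd2 through the class II major histocompatibility genes on chromosome 17, and one with St14 on chromosome 9. St14 encodes matriptase, a protease of the epidermal barrier. In the 1553 bins next to a dense bin and not dense themselves, the mean difference was 0.113 peaks and 50.4% had more Irx5KO-only peaks. Over all 23141 bins under the limit these values were -1.26 and 32.9%. Neighbouring bins were also rich in genes, with a mean of 1.91. At 1000 kb on either side of a dense bin the means were -0.811 and -0.551, still above -1.26. The extension thus did not end within the distance examined.

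**Figure D4:**
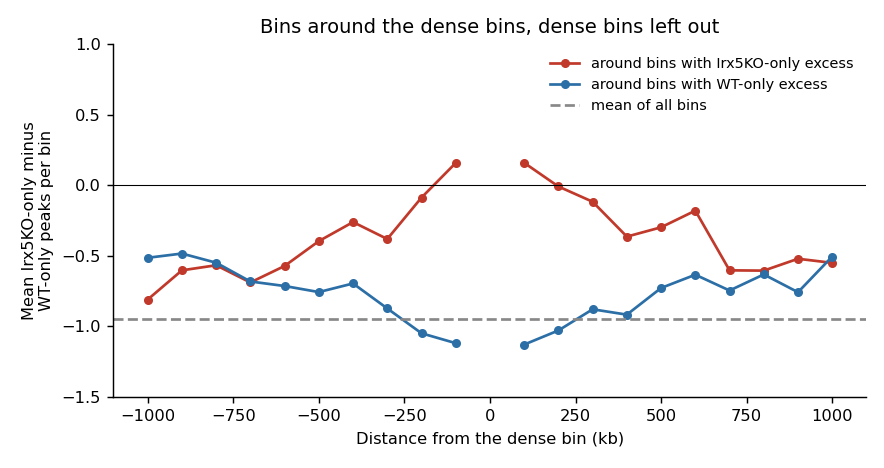
Mean Irx5KO-only minus WT-only peaks per 100 kb bin, against distance from a dense bin (red) or a reverse bin (blue) in kb, with bins of the same kind left out; the dashed line is the mean of all bins, dense bins included, at -0.946. The red line is highest next to the dense bins, at 0.157 and 0.158, and lower at 1000 kb, at -0.811 and -0.551. With dense bins left out, the mean of all bins is -1.26, which is not drawn.

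All 19 chromosomes had dense bins, from 2.06% of bins on chromosome 19 and 2.22% on chromosome 12 to 5.21% on chromosome 11. Chromosome 11 had a mean of 1.81 coding genes per bin and chromosome 12 had 0.936. Chromosome 19 had 1.72 genes per bin and still the lowest share. Clustered gene families were not frequent: 2.16% (1.39 to 3.35) of dense bins held 3 or more coding genes with a common symbol stem, against 2.22% of all bins and 4.09% (3.41 to 4.91) of reverse bins. Pseudogenes overlapped dense bins in 312 of 9496 cases (3.29%) and reverse bins in 1373 (14.5%).

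A miRNA gene lay in 8.98% (7.26 to 11) of dense bins, 3.53% of all bins and 1.30% of reverse bins. Counted per gene, 86 of 1136 miRNA genes (7.57%) overlapped a dense bin, a share under that of coding genes. In bins with 3 to 5 coding genes 14% (9.87 to 19.5) of dense bins and 8.90% (7.95 to 9.96) of all bins had one. With 6 or more genes the shares were 41.1% (29.2 to 54.1) and 22.1% (18.8 to 25.7). With 2 genes they were 9.20% (5.66 to 14.6) and 4.31% (3.68 to 5.04), and with 1 gene 3.97% and 2.49%. Bins with 0 coding genes went the other way, at 0.629% and 1.07%, with 1 such dense bin holding a miRNA gene. The mature miRNAs below, from RefSeq with the seed (bases 2 to 8) in capitals, were chosen after their places were seen. Mir26a-2 (chr10:126995530-126995613) lies inside the span of Ctdsp2 in the sixth bin. Mir193b (chr16:13449523-13449601) and Mir365-1 (chr16:13453840-13453926) lie in a bin with an excess of 12. Mir1982 (chr10:80828797-80828870) and Mir6936 (chr11:120624823-120624876) are the 2 miRNA genes overlapped by a clustered peak.
miR-26a-5p: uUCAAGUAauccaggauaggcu
miR-193b-3p: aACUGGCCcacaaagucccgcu
miR-365-3p: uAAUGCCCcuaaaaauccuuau
miR-1982-5p: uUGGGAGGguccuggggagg
miR-1982-3p: uCUCACCCuauguucucccacag
miR-6936-5p: gUGAGCCAcugccgugcccgc
miR-6936-3p: cGGCGCGCgcggucgcucacc

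No seed is common to any of these 7 sequences. miR-26a restrains cell growth through targets such as Ezh2, and the miR-193b and miR-365 pair is processed from a common transcript. The nearest clustered peak was 2537 bp from Mir26a-2, 2629 bp from Mir193b and 719 bp from Mir365-1.

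In all, 1773 of 20665 coding genes overlapped a dense bin, which is 8.58%, and 2015 a reverse bin, which is 9.75%. The dense share was 7.26% in the shortest of 3 equal groups by gene length and 10.3% in the longest. It was 8.43% (8 to 8.88) for genes with a shared peak over an end and 9.02% (8.28 to 9.82) for genes without one. Against these values stand 24 gene lists of 618 genes. Of these genes 104, or 16.8% (14.1 to 20), overlapped a dense bin and 24, or 3.88% (2.62 to 5.71), a reverse bin. The dense share was above 8.58% in 19 of 24 lists, and the reverse share above 9.75% in 2. Housekeeping genes, a control, had the highest dense share, with 4 of 14 (28.6%, 11.7 to 54.6). The listed genes had more dense bins at equal gene number too: where the fullest bin of a gene held 3 to 5 coding genes, 18.1% (13.9 to 23.3) of listed genes and 8.52% (7.98 to 9.09) of all genes overlapped one. Gene length was not matched. Most lists had a median length above the 17.5 kb of all coding genes, while housekeeping genes had 6.64 kb. The lists were written with earlier results of these data known, and the counts show nothing particular to any of them. The counts per gene that follow depend on where the bins start and on the lowest scores: of 95 named genes with a clustered peak in the span, 40 had 0 with the bins shifted by 50 kb and 49 without the lowest 10% of peaks by score. Among those at 0 after the shift were Lhx2, Axin2, Nkd1, Smad7, Gli3, Yap1, Fgfr2, Itgb6, Sdc1 and Arid5b.

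**Figure D5:**
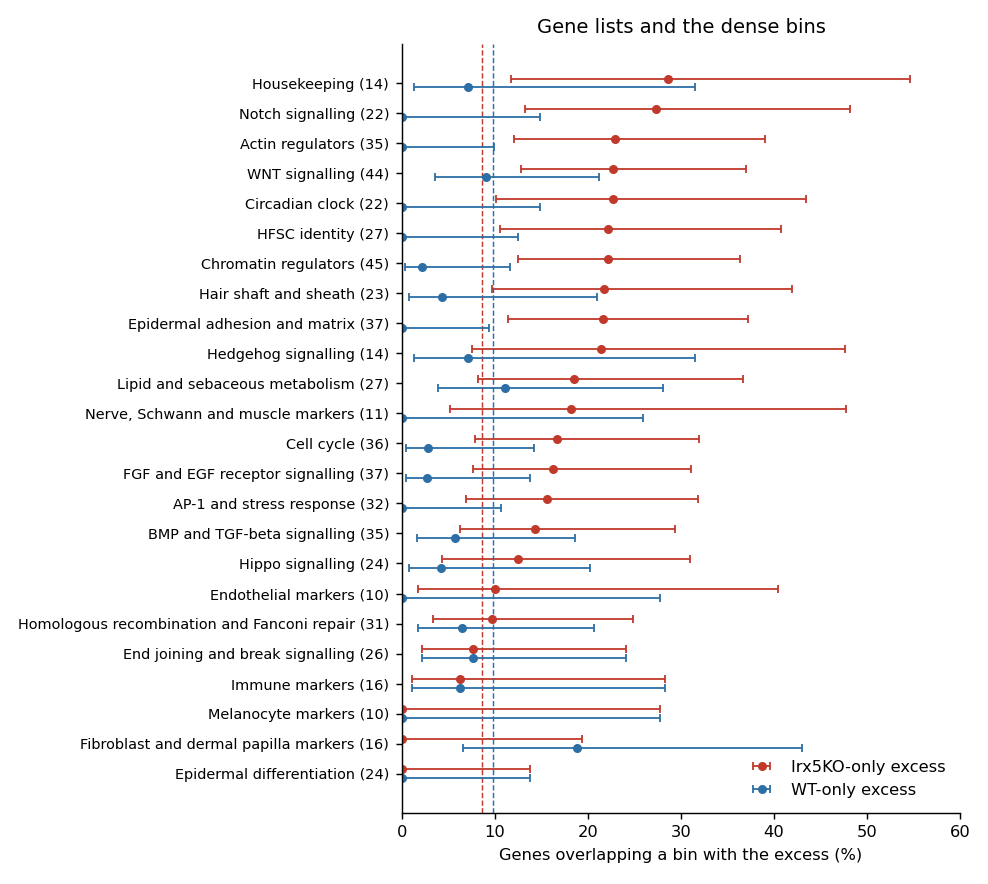
Percentage of the genes of each list that overlap a bin with Irx5KO-only excess (red) or WT-only excess (blue), with 95% Wilson intervals and the number of genes in brackets; dashed lines are the shares of all coding genes, 8.58% and 9.75%. Most red points, the housekeeping list among them, lie right of the red line, while the lists of epidermal differentiation, melanocyte and fibroblast genes are at 0.

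Transcription factors of HFSC identity were among the genes in dense bins. Of 27 genes 6 overlapped one (22.2%, 10.6 to 40.8), and 0 a reverse bin. Tcf7l1 held 17 clustered peaks, Nfib 11, Vdr 10 and Lhx2 3. Vdr encodes the vitamin D receptor, which the hair cycle needs, and Lhx2 a LIM homeodomain factor of the bulge. Over their spans Nfib had 18 Irx5KO-only and 6 WT-only peaks, Vdr 14 and 1, and Lhx2 3 and 1. The bulge keratin gene Krt15 lay in a dense bin with 0 in its span and 1 near an end, and Foxc1, a quiescence factor, held 1. Sox9, Nfatc1, Lgr5 and Runx1 overlapped no dense bin.

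In the WNT pathway 10 of 44 genes overlapped a dense bin (22.7%, 12.8 to 37.0) and 4 a reverse bin. Among ligands, Wnt4 held 4 clustered peaks, and Wnt6 and Wnt10a, which share a bin, held 4 and 1. Lrp5 and Lrp6, the co-receptors, held 6 and 4. The feedback inhibitors Axin2 and Nkd1 and the coactivator gene Bcl9l held 6 each, the corepressor gene Tle3 held 5 and Lef1 held 2. Axin2, Lrp5, Nkd1 and Bcl9l each had 6 Irx5KO-only and 1 WT-only peaks over the span, and Lef1 had 5 and 5.

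BMP and TGF-beta genes had 5 of 35 in dense bins (14.3%, 6.26 to 29.4) and 2 in reverse bins. Smad7, an inhibitor of the pathway, held 8 clustered peaks, the corepressor genes Ski and Tgif1 6 and 2, and the receptor gene Acvr1 4. Smad4, the common mediator, lay in a dense bin with 0 in its span. In the hedgehog list of 14 genes Boc, a co-receptor, held 10, Gli3 held 6 and Kif7 held 0. Gli3 had 17 Irx5KO-only and 14 WT-only peaks over its 266 kb. Of 22 Notch genes 6 overlapped a dense bin (27.3%, 13.2 to 48.2) and 0 a reverse bin. The coactivator gene Maml3 held 8, the ligand gene Jag2 4, Dlk2 2 and the receptor gene Notch3 1. Maml3, at 418 kb, had 24 Irx5KO-only and 4 WT-only peaks. In the Hippo list 3 of 24 did (12.5%, 4.34 to 31.0): Yap1, the coactivator, held 7, its partner Tead3 held 3 and Rassf1 held 2.

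Growth factor receptors were the next group. Of 37 FGF and EGF pathway genes 6 overlapped a dense bin (16.2%, 7.65 to 31.1) and 1 a reverse bin. Lrig1, which restrains EGF receptors and marks upper-follicle stem cells, held 10 clustered peaks. Egfr held 8, Fgfr2 held 7 and Lrig3 and Insr held 6 each. Over its 162 kb Egfr had 14 from Irx5KO only and 3 from WT only, and Lrig1 had 10 and 2. Of 32 AP-1 and stress genes 5 did (15.6%, 6.86 to 31.8) and 0 a reverse bin. They were Mafk with 2 clustered peaks, Mafg and Egr3 with 1, and Junb and Jund with 0.

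Adhesion genes of basal cells had 8 of 37 in dense bins (21.6%, 11.4 to 37.2) and 0 in reverse bins. Itgb6, an integrin gene of activated keratinocytes, held 11 clustered peaks, Nectin1 8 and the syndecan gene Sdc1 7. Sdc1 had 7 from Irx5KO only and 0 from WT only. The actin regulator list had 8 of 35 (22.9%, 12.1 to 39.0) and 0. The alpha-actinin genes Actn4 and Actn1 held 7 and 4, the non-muscle myosin gene Myh9 held 6 and the small GTPase gene Rac1 held 5.

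Among 45 chromatin regulators 10 overlapped a dense bin (22.2%, 12.5 to 36.3) and 1 a reverse bin. The acetyltransferase gene Kat2b held 11 clustered peaks, the ARID factor gene Arid5b 8, and the deacetylase genes Hdac5 and Hdac7 5 each. Hdac7 shares a bin with Vdr and had 5 Irx5KO-only and 5 WT-only peaks. The clock list had 5 of 22 (22.7%, 10.1 to 43.4), with 3 clustered peaks in Per2, 2 in Per1, 1 in Npas2 and 0 in Nr1d1.

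The DNA repair lists were close to the background of 8.58%. In homologous recombination and Fanconi repair 3 of 31 genes overlapped a dense bin (9.68%, 3.35 to 24.9) and 2 a reverse bin. They were Exo1, Rad51d and Fance, with 1, 0 and 0 clustered peaks in their spans. In end joining and break signalling 2 of 26 did (7.69%, 2.14 to 24.1) and 2 a reverse bin. Lig3, a DNA ligase gene, held 1 and Cdkn1a, the p21 gene, held 0. Lig3 and Rad51d share a dense bin. Of 36 cell cycle genes 6 did (16.7%, 7.87 to 31.9), and Ccnd1, Cdkn2d, E2f1 and E2f4 held 1 each.

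The lists of differentiated and other cells ran from 0 to 21.7%. None of 24 epidermal differentiation genes (up to 13.8%), 16 fibroblast and dermal papilla markers (up to 19.4%) or 10 melanocyte markers (up to 27.8%) overlapped a dense bin. Of the fibroblast markers 3 overlapped a reverse bin. Among 16 immune markers Itgam did, with 0 clustered peaks, and among 10 endothelial markers Pecam1 did, with 4. Of 11 nerve, Schwann and muscle markers Ngfr held 4 and Myod1 held 2. In the hair shaft and sheath list 5 of 23 did (21.7%, 9.66 to 41.9). Krt81 and Krt86, neighbours in 1 bin, held 2 and 1, and Dlx3 and Tchh held 0. In the lipid and sebaceous list 5 of 27 did (18.5%, 8.18 to 36.7) and 3 a reverse bin, with Srebf2 and Fabp5 at 2 and Scd1 and Acly at 1. The part of other cell types in these counts was not tested.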

How the data were processed

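ATAC-seq peaks of 4 HFSC samples, 2 Irx5KO and 2 WT, were used as 1 pooled list per genotype, as the labels assign them. The submitters' processing notes name, with no role or order, Genrich 0.6, cutadapt 2.9, FastQC, Bowtie2, ChIPseeker 1.24.0 and deepTools 3.4.2, and build mm10. The sources used here give no settings, duplicate handling or shift for the Tn5 cut. The deposited score is the authors' own value per peak and was used only within a list. The deposited columns for signal, p and q hold 0 throughout and were not used.

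Overlap (1 bp), bins by midpoint and gene positions (RefSeq table of GRCm38.p6, 20665 coding genes) were computed with Python 3.11.15, numpy 2.4.6, pandas 2.3.3 and scipy 1.17.1; shared peaks equalled those of bedtools 2.31.1. Plots used matplotlib 3.10.9. On simulated data the bin rule recovered 200 of 200 planted bins among 2400. Every planted bin had the same fixed excess and the other bins had none, so this checked the code only. The peaks, the 24 gene lists (626 entries, all matched) and the named genes were chosen with earlier results of these data known. Named genes were those in the 10 densest bins, the 10 with the most clustered peaks, up to 4 per list, those with clustered peaks at their ends, and Irx5, Fgf18 and Brca1; other genes named were chosen after their values were seen. Some named-gene results are not reported here. No peak sequence is printed, since no genome was used here. Alternatives changed overlap, score threshold, bin origin, excess, width, list length and gene windows.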

Additional observations from a re-analysis of the deposited data

How the results depend on the processing

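The number of dense bins depends on the score limit and on the excess limit. With peaks at or over the list median score there were 0 dense bins, with 0 coding genes, and no clustered peaks could be defined. Few genotype-only peaks have such scores, so this setting left little room for any excess. Without the lowest 10% by score there were 352 dense bins, 775 coding genes and 2567 clustered peaks, of which 8.61% lay at gene ends and 45.4% in gene bodies. An excess of 8 or more gave 278 bins, 613 genes and 3022 peaks, and one of 5 or more gave 1511, 2873 and 12221. Counts scaled to equal totals, chosen after seeing the data, gave 1659 bins, 3141 genes, 13678 peaks and 47.2% in gene bodies. Where sharing needed 50% of the peak covered, 9.45% lay at gene ends. Windows of 3000 and 500 bp gave 19.1% and 4% at gene ends and 41.8% and 51.0% in gene bodies. Where an excess or score limit is raised, fewer bins can pass; other causes were not tested. A shift of the bins by 50 kb, a width limit of 2000 bp, equal list lengths and genes taken by an end moved the totals of bins, coding genes and clustered peaks by less than 1.5 times. Counts per list and per gene were less stable: the shift took BMP genes from 5 to 2 and clock genes from 5 to 3, equal list lengths took clock genes to 8, and 69 of 95 named genes had 0 clustered peaks under at least 1 alternative. The share of dense bins with a coding gene was 81.0% to 84.8% wherever any bin passed. The count of list genes in dense bins moved by over 1.5 times in 106 of 240 cases, and HFSC identity genes ranged from 0 to 10. No paired analysis was possible because each list pools both replicates of a genotype, and for the same reason no replicate could be left out. Depth is unknown in these lists, so a peak listed in 1 genotype may be under the threshold in the other.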

Other observations

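On chromosome X, which the rule left out, 20 of 1623 bins (1.23%) had 6 or more Irx5KO-only peaks above the WT-only number, and 252 (15.5%) had the reverse. On chromosome Y the counts were 0 and 4 of 845 bins, and on unplaced contigs 0 and 6 of 74. Against 3.66% and 11.2% on chromosomes 1 to 19, dense bins were thus less frequent on X and reverse bins more frequent. The sex of the mice and the number of genes per bin were not taken into account in this comparison. Of 12408 lncRNA genes 820 (6.61%) overlapped a dense bin and 968 (7.80%) a reverse bin, and 443 were overlapped by a clustered peak.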
